A study of Mus musculus with 8 samples.

Results

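Inhibitory receptors and phosphatases set the threshold of antigen receptor signalling in B cells, and 10 of their genes were followed here across 4 groups of mouse pre-B cells. The genes were Cd22, Cd72, Fcgr2b, Siglecg, Cd5, Lair1, Pirb, Ptpn6, Ptprc and Ptpn22, taken by name among the non-control probes of the array. Under the deposited gene names 9 of the 10 were found, with 13 probes on 22 spots, of 55681 probes in all. The tenth, Pirb, is listed under its older name Lilrb3 with 3 probes and is described apart from the rest. Of the 13 probes, 11 passed the filter on dim probes (both arrays of some group well above background), and each of the 9 genes kept at least 1 probe among the 21321 genes and annotated features tested.

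All cells were of the line wk3, pre-B cells with the genotype SLP-65-/-, so the controls lacked this adaptor too. They carried either a retroviral scrambled sponge as control or a sponge against the miR-15 family, were selected with puromycin, and were sampled in excess IL-7 or 36 h after IL-7 was withdrawn. The 4 groups are called scrambled cells with IL-7, sponge cells with IL-7, scrambled cells without IL-7 and sponge cells without IL-7, and each held 2 one-colour Agilent arrays. Per the series description the 2 replicates were separate experiments on independently generated clones, all of 1 line. Nothing in these arrays measured the microRNAs themselves.

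Antigen receptor signalling in B cells starts when Src-family kinases such as Lyn phosphorylate the receptor, upstream of the adaptor SLP-65. The same kinases phosphorylate tyrosine motifs in the tails of inhibitory receptors, which then bind the phosphatase SHP-1 (Ptpn6) or the lipid phosphatase SHIP (Inpp5d) and damp the signal. CD45 (Ptprc) removes the inhibitory phosphate of Src-family kinases and so also permits signalling, while PEP (Ptpn22) acts with the kinase Csk against it. IL-7 drives the expansion of pre-B cells, and its loss lets them differentiate.

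The sponge was directed at 6 microRNAs, whose mature sequences are shown because they define its intended targets. The sequences are RefSeq's (GRCm38.p6), with the seed, bases 2 to 8, in capitals. All 6 have 1 seed in common.
mmu-miR-15a-5p: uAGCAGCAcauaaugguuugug
mmu-miR-15b-5p: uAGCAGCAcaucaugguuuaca
mmu-miR-16-5p: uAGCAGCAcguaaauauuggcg
mmu-miR-195a-5p: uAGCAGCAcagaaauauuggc
mmu-miR-322-5p: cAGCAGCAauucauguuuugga
mmu-miR-497a-5p: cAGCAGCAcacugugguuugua
Sites for this seed in the receptor and phosphatase transcripts were not analysed here.

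Between 50.6% and 56.6% of an array's non-control spots exceeded background by the deposited flag, and 0 were saturated. Replicate spread was widest in scrambled cells with IL-7, where 1170 genes differed by over 1 log2 unit between the arrays, and 194 to 519 genes did so in the other groups. All arrays lay on 1 slide, with IL-7 groups in one column and withdrawn groups in the other and with scrambled and sponge arrays in different rows, so position on the slide and group cannot be told apart. All 12 B lineage markers were well above background on all 8 arrays, while 6 of 12 T cell markers (Cd3g, Cd2, Cd8b1, Themis, Thy1, Trat1) were so on none and 4 (Zap70, Lck, Cd4, Cd3e) were so on all 8. Blnk, which encodes SLP-65, had group mean levels of 7.16 to 8.22, but the place of its probe relative to the disrupted sequence was not given, so this does not check the genotype. Levels are log2 of the processed signal relative to the array's 75th percentile, differences are log2 ± SE with n = 2 arrays per group, and calls were made in limma at an adjusted p under 0.05. In these bulk samples fewer cells with a transcript and less transcript per cell cannot be told apart.

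IL-7 withdrawal in scrambled cells asked how the inhibitory genes move when control cells start to differentiate. Of the 9 genes, 5 rose (Fcgr2b, Cd72, Siglecg, Cd22 and Ptprc), 2 fell (Cd5 and Ptpn6), and Ptpn22 and Lair1 were not called. Over all genes 20.7% were called higher, 27.4% lower and 48.1% either way. The median difference of the 9 was 0.34, against -0.02 over all genes. The arrays of the 2 groups did not overlap for 8 of the 9 genes, against 75% of all genes. Cd22 and Ptprc lost their calls when any 1 of the 4 arrays without IL-7 was left out. Fewer genes were called over all genes in these fits as well. Leaving out a sponge array does not change the differences themselves. Over all fits with 1 array left out, Cd22 differed by 0.32 to 0.54 and Ptprc by 0.23 to 0.39.

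**Figure D1:**
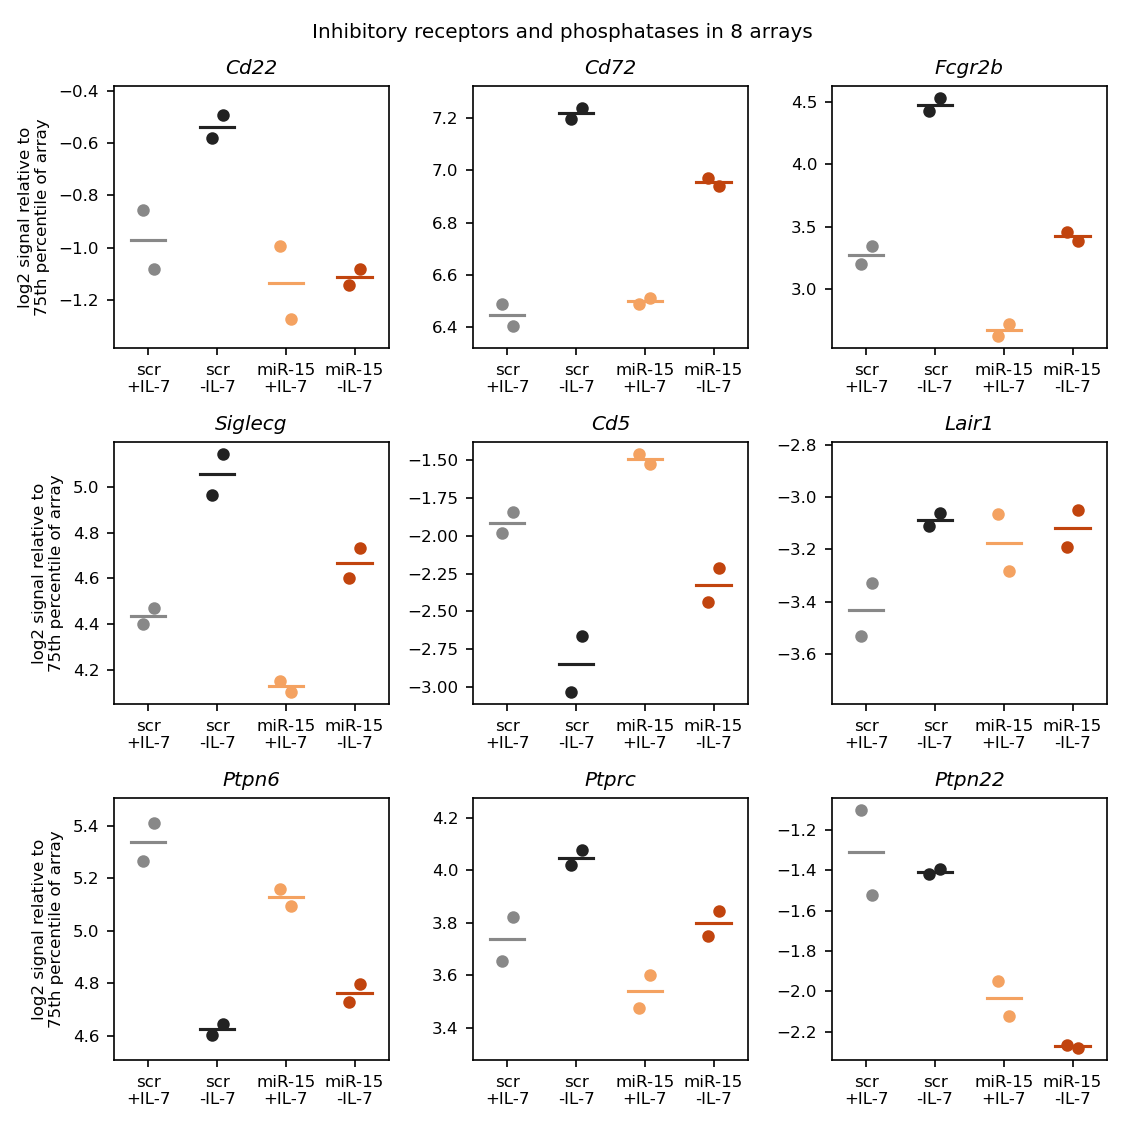
Level of each of 9 genes on each of the 8 arrays, as log2 signal relative to the array's 75th percentile (vertical axis, its own range per gene), by group (horizontal axis; scr, scrambled sponge). Points are arrays and bars are group means (n = 2). Fcgr2b, Cd72 and Siglecg stand higher without IL-7 in both cell types, and Ptpn6 and Cd5 stand lower.

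Fcgr2b encodes the inhibitory receptor for the constant part of IgG, which recruits SHIP. Its probe lies on mm9 chromosome 1 at chr1:172890988-172891047 and is printed on 10 spots. Log2 levels were 3.20 and 3.34 in scrambled cells with IL-7 and 4.43 and 4.53 without it. Sponge cells had levels of 2.62 and 2.72 with IL-7 and 3.46 and 3.39 without it. The 4 groups did not overlap, scrambled cells without IL-7 were highest, and sponge cells with IL-7 were lowest. Between 9 and 10 unflagged spots stood behind each array's value, with a spot-to-spot SD of 0.06 to 0.08 log2 units. Fcgr2b rose by 1.21 ± 0.09 on withdrawal in scrambled cells, or 2.31-fold (adjusted p = 0.000366), and by 0.75 ± 0.09, or 1.68-fold, in sponge cells (adjusted p = 0.00459). Its change was at the 95.4th percentile of all genes in scrambled cells.

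Cd72 encodes a lectin-like receptor that binds SHP-1 when phosphorylated. Scrambled cells had log2 levels of 6.49 and 6.40 with IL-7 and 7.20 and 7.24 without it. In sponge cells the levels were 6.49 and 6.51 with IL-7 and 6.97 and 6.94 without it. All 4 arrays without IL-7 were above all 4 with it, and among the 4 withdrawn arrays the sponge arrays were below the scrambled ones. Withdrawal raised Cd72 by 0.77 ± 0.07 in scrambled cells (1.71-fold, adjusted p = 0.000551) and by 0.45 ± 0.07 in sponge cells (1.37-fold, adjusted p = 0.00866). A second Cd72 probe, which overlaps the first on chromosome 4, gave 0.71 and 0.45. After quantile normalization the rises of Cd72 were 1.18 and 0.93.

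Siglecg encodes Siglec-G, a sialic acid-binding receptor that restrains calcium signalling in B cells. Its log2 levels in scrambled cells were 4.40 and 4.47 with IL-7 and 4.97 and 5.14 without. In IL-7 the sponge arrays gave 4.15 and 4.10, and after withdrawal 4.60 and 4.73. The groups did not overlap, and within each culture condition both sponge arrays were below both scrambled arrays. Siglecg rose by 0.62 ± 0.09 in scrambled cells (1.54-fold, adjusted p = 0.00304) and by 0.54 ± 0.09 in sponge cells (1.45-fold, adjusted p = 0.0126). Its second probe gave 0.61 and 0.48, and quantile normalization gave 0.93 in scrambled cells.

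Cd22 encodes the other sialic acid-binding receptor, a major SHP-1 recruiter of mature B cells. Levels on the log2 scale were -0.86 and -1.08 in scrambled cells with IL-7 and -0.58 and -0.49 without it. The sponge arrays read -0.99 and -1.27 with IL-7 and -1.14 and -1.08 without it. Only the 2 scrambled arrays without IL-7 stood apart, and the other 6 intermixed. Cd22 rose by 0.43 ± 0.13 in scrambled cells (1.35-fold, adjusted p = 0.0339), while in sponge cells its difference was 0.02 with a 95% interval of -0.29 to 0.33 (adjusted p = 0.93). The rise in scrambled cells was no longer called without scrambled replicate 2 with IL-7 (adjusted p = 0.117), without scrambled replicates 1 or 2 without IL-7 (adjusted p = 0.0892 and 0.147), or without either sponge array without IL-7 (adjusted p = 0.0597 for each), and it was 0.23 with normexp background correction (adjusted p = 0.16). Without a filter on dim probes, which tests more features, it was not called either (adjusted p = 0.0763).

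Cd5 encodes a scavenger-type receptor of T cells and B-1 cells that lowers antigen receptor signalling. It was among the dim members, with log2 levels of -1.98 and -1.85 in scrambled cells with IL-7 and -3.03 and -2.66 without. The sponge arrays gave -1.46 and -1.53 in IL-7 and -2.44 and -2.21 after withdrawal. The 4 groups did not overlap, and both groups without IL-7 were below both groups with it, the reverse of Fcgr2b, Cd72 and Siglecg. Cd5 fell by 0.93 ± 0.15 in scrambled cells (adjusted p = 0.00377) and fell by 0.83 ± 0.15 in sponge cells (adjusted p = 0.0142), and with normexp the difference in scrambled cells was -0.57. In sponge cells the call was lost without any 1 of 3 arrays, namely sponge replicate 1 or 2 with IL-7 (adjusted p = 0.0619 and 0.0666) and sponge replicate 1 without IL-7 (adjusted p = 0.0716). The summed level of the T cell markers, in units of the 75th percentile, was 55.2 to 58.6 in scrambled cells with IL-7, 46.9 to 52.3 in sponge cells with IL-7, 46.8 to 48.2 in scrambled cells without and 44.7 to 47.2 in sponge cells without. This sum is weighted to the brightest markers, Zap70 and Lck. In scrambled cells the log2 levels of Zap70 were 5.23 and 5.38 with IL-7 and 4.83 and 4.78 without. Those of Lck were 3.63 and 3.57 with IL-7 and 3.93 and 3.90 without. The part of the T cell marker transcripts in the Cd5 result was not tested.

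Lair1 encodes a collagen receptor with inhibitory tail motifs. Only 1 of its 3 probes was above background, with log2 levels of -3.53 and -3.33 in scrambled cells with IL-7, -3.07 and -3.28 in sponge cells with IL-7, -3.11 and -3.06 in scrambled cells without and -3.19 and -3.05 in sponge cells without. The scrambled arrays with IL-7 were lowest, and the other 3 groups overlapped. The difference on withdrawal was 0.34 ± 0.12 in scrambled cells (adjusted p = 0.0529) and 0.06 ± 0.12 in sponge cells (adjusted p = 0.778). The first was called when scrambled replicate 2 with IL-7 was left out (adjusted p = 0.0401) and with the filter on all 8 arrays (adjusted p = 0.0377).

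Ptpn6 encodes SHP-1, the phosphatase that CD22, CD72 and PIR-B recruit. Its log2 levels were 5.27 and 5.41 in scrambled cells with IL-7 and 4.60 and 4.65 without. The sponge arrays gave 5.16 and 5.10 in IL-7 and 4.73 and 4.80 after its withdrawal. All arrays without IL-7 were below all arrays with it, and the sponge groups lay between the 2 scrambled groups. Ptpn6 fell by 0.72 ± 0.08 in scrambled cells, to a level 1.64-fold lower (adjusted p = 0.00111), and fell by 0.37 ± 0.08 in sponge cells (adjusted p = 0.0261). The call in sponge cells depended on the scaling. The difference was -0.11 after quantile normalization (adjusted p = 0.408) and -0.12 in the authors' deposited table, and in scrambled cells -0.40 after quantile normalization, still called. Without a filter on dim probes the call in sponge cells was lost (adjusted p = 0.0782). It was also lost without sponge replicate 1 or 2 with IL-7 (adjusted p = 0.103 and 0.0897), scrambled replicate 1 or 2 without IL-7 (adjusted p = 0.0547 for each), or sponge replicate 1 or 2 without IL-7 (adjusted p = 0.113 and 0.0899).

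Ptprc encodes the receptor phosphatase CD45. Scrambled arrays were at log2 levels of 3.66 and 3.82 with IL-7 and 4.02 and 4.08 without, and sponge arrays lay at 3.48 and 3.60 when IL-7 was present and at 3.75 and 3.85 when it was not. Each group without IL-7 was above its counterpart with IL-7, and sponge cells without IL-7 overlapped scrambled cells with it. Ptprc rose by 0.31 ± 0.09 in scrambled cells (1.24-fold, adjusted p = 0.037), and the difference in sponge cells was 0.26 ± 0.09 (adjusted p = 0.102). The first was not called without scrambled replicate 1 with IL-7 (adjusted p = 0.134), without scrambled replicates 1 or 2 without IL-7 (adjusted p = 0.0994 and 0.156), or without either sponge array without IL-7 (adjusted p = 0.0568 for each), nor without a filter on dim probes (adjusted p = 0.0891). It was 0.51 after quantile normalization and 0.49 with normexp. In sponge cells it was called after quantile normalization, at 0.41 (adjusted p = 0.0273).

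Ptpn22 encodes PEP, which inactivates Src-family kinases in lymphocytes. Log2 levels were -1.10 and -1.52 in scrambled cells with IL-7, -1.42 and -1.39 in scrambled cells without, -1.95 and -2.12 in sponge cells with IL-7 and -2.26 and -2.28 in sponge cells without. The groups separated by construct, with all 4 sponge arrays below all 4 scrambled arrays, and the 2 scrambled groups overlapped. On withdrawal the difference was -0.10 ± 0.15 in scrambled cells (95% interval -0.46 to 0.27, adjusted p = 0.617) and -0.24 ± 0.15 in sponge cells (adjusted p = 0.302).

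In sponge cells, withdrawal raised 3 of the 9 genes (Fcgr2b, Siglecg and Cd72) and lowered 2 (Cd5 and Ptpn6), where 7.92% of all genes were called higher and 15.2% lower, 23.2% together. After quantile normalization the split of all called genes was 2086 higher and 1961 lower, in place of 1688 and 3251. The arrays of the 2 conditions did not overlap for 7 of the 9 genes, against 66% of all genes. Cd72 and Siglecg lost their calls when sponge replicate 2 of either condition was left out. Cd5 and Ptpn6 lost theirs in fits named above. Leaving out any sponge array also gave fewer calls over all genes. With 1 array left out the differences were 0.70 to 0.80 for Fcgr2b, 0.48 to 0.61 for Siglecg and 0.44 to 0.47 for Cd72. They were -0.94 to -0.72 for Cd5 and -0.40 to -0.33 for Ptpn6. Whether withdrawal acted differently in the 2 cell types was tested directly as the difference of the withdrawal effects, in which 0 of the 9 were called by limma, 3 passed an unadjusted p of 0.05, and 5.27% of all genes were called, 4.32% higher and 0.952% lower (0 genes with the replicate block). Fcgr2b had the largest difference, -0.46 ± 0.12 (adjusted p = 0.0995), and it was called after quantile normalization (-0.58, adjusted p = 0.0366). Cd72 stood at -0.32 ± 0.10 (adjusted p = 0.126), Cd22 at -0.41 ± 0.18 (adjusted p = 0.239) and Ptpn6 at 0.35 ± 0.11 (adjusted p = 0.145). The smaller changes of these genes in sponge cells did not pass the test of the difference, and the 95% intervals still held differences as large as -0.76 for Fcgr2b and 0.63 for Ptpn6.

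**Figure D2:**
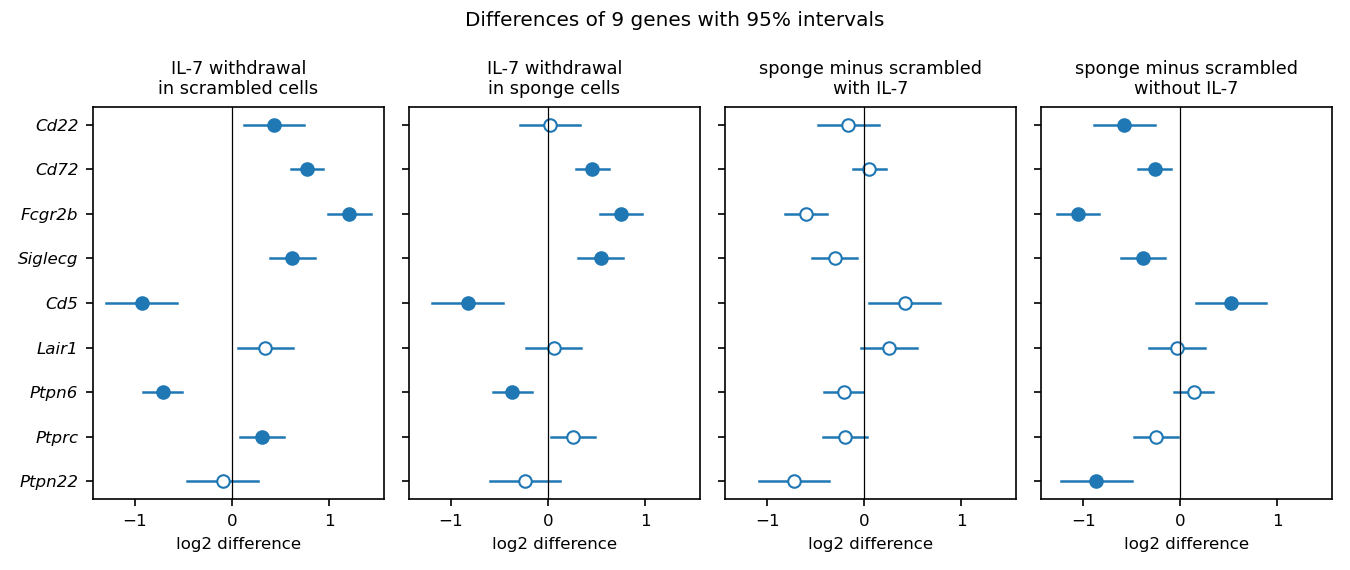
Log2 difference (horizontal axis) of 9 genes (vertical axis) in 4 comparisons, as point and 95% interval from limma with 2 arrays per group. Filled points were called at an adjusted p under 0.05: 7 genes in scrambled cells and 5 in sponge cells on withdrawal, 0 between constructs with IL-7 and 6 without it.

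The comparison of sponge with scrambled cells asked how the inhibitory genes differ in cells that carry the sponge against the miR-15 family. With IL-7 present, limma called 0 of the 9 genes, against 1.13% of all genes, 0.314% higher and 0.816% lower (0.708% either way with the replicate block), and 5 of the 9 had an unadjusted p under 0.05. The arrays of the 2 constructs did not overlap for 8 of the 9 genes, against 50.6% of all genes. Ptpn22 differed by -0.72 ± 0.15 (95% interval -1.09 to -0.36, adjusted p = 0.0907) and Fcgr2b by -0.60 ± 0.09 (95% interval -0.82 to -0.38, adjusted p = 0.0508). Fcgr2b was called under 6 of the 18 alternative settings, with adjusted p between 0.00354 and 0.167 over all settings. Ptpn22 was called when scrambled replicate 2 with IL-7 was left out (-0.93, adjusted p = 0.0161), the array on which it was lower. The remaining 7 lay between -0.31 for Siglecg and 0.42 for Cd5.

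Without IL-7, 5 of the 9 genes were lower in sponge cells (Fcgr2b, Ptpn22, Cd22, Siglecg and Cd72) and Cd5 was higher, while Ptpn6, Ptprc and Lair1 were not called. Of all genes 15.3% were called lower, 16.7% higher and 32.1% either way. The arrays of the constructs did not overlap for 8 of the 9 genes, against 72.7% of all genes. Fcgr2b differed by -1.05 ± 0.09, to a level 2.08-fold lower (adjusted p = 0.0013), which is at the 2.9th percentile of all genes. Ptpn22 differed by -0.87 ± 0.15 (1.82-fold lower, adjusted p = 0.00789), also near the low end, at the 4.85th percentile. These 2 also had the most negative differences of the 9 with IL-7 present. Cd22 differed by -0.58 ± 0.13 (adjusted p = 0.0187), Siglecg by -0.39 ± 0.09 (adjusted p = 0.0253) and Cd72 by -0.26 ± 0.07 (adjusted p = 0.0329). The second probes gave -0.31 for Siglecg (adjusted p = 0.058, and 0.04 with the replicate block) and -0.27 for Cd72 (adjusted p = 0.0655), the same direction as the first probes. Cd5 was 1.44-fold higher in sponge cells (0.52 ± 0.15, adjusted p = 0.043).

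The calls other than that of Fcgr2b were lost in some fits with 1 array left out, which have fewer residual degrees of freedom. The differences of Cd22 (-0.62 to -0.53), Cd72 (-0.28 to -0.24) and Ptpn22 (-0.88 to -0.85) moved little in these fits. Those of Siglecg (-0.48 to -0.30) and Cd5 (0.34 to 0.71) moved more, with the sign kept. Cd22 and Cd72 were not called when any 1 of the 4 arrays without IL-7 was left out (adjusted p = 0.0664, 0.105, 0.0906 and 0.0705 for Cd22 and 0.105, 0.157, 0.1 and 0.13 for Cd72, in the order scrambled replicates 1 and 2, sponge replicates 1 and 2), and Cd72 also not when either sponge array with IL-7 was (adjusted p = 0.0578 for each). Siglecg lost its call without scrambled replicate 2 (adjusted p = 0.134) or sponge replicates 1 or 2 without IL-7 (adjusted p = 0.12 and 0.0552), and Ptpn22 without scrambled replicate 2 without IL-7 (adjusted p = 0.053). The call of Cd5 was lost without any 1 array except scrambled replicate 2 without IL-7, with adjusted p between 0.0522 and 0.184, the difference being 0.34 without scrambled replicate 1 without IL-7, and with normexp it was 0.22 (adjusted p = 0.0983). Normexp also ended the call of Cd72 (adjusted p = 0.0929), and the fit without a filter on dim probes those of Cd72, Siglecg and Cd5 (adjusted p = 0.0991, 0.0692 and 0.0967). Fcgr2b, in contrast, was called under all 18 alternatives, its difference reaching from -1.22 to -1.0. Ptprc differed by -0.25 ± 0.09 (adjusted p = 0.0921), and with the replicate block, which pairs the experiments, it was called (adjusted p = 0.0494), as it was after quantile normalization (-0.36, adjusted p = 0.0235), in the authors' deposited table (adjusted p = 0.0234) and with a variance trend (adjusted p = 0.0347). Ptpn6 stood at 0.14 ± 0.08 (95% interval -0.06 to 0.34) and Lair1 at -0.03 ± 0.12 (95% interval -0.32 to 0.25). This comparison shares the scrambled arrays without IL-7 with the withdrawal comparison in scrambled cells, so their opposite signs for Fcgr2b, Siglecg, Cd72, Cd22 and Cd5 are not separate evidence.

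Pirb encodes PIR-B, a receptor for MHC class I that recruits SHP-1, and its 3 probes on chromosome 7 disagreed. The probe designed on the RefSeq transcript NM_011095 (mm9 chr7:3664137-3664196) had log2 levels of -6.84 and -6.43 in scrambled cells with IL-7 and -7.24 and -7.15 in sponge cells with IL-7, none of them well above background. Without IL-7 it was above background on all 4 arrays, at -3.24 and -2.88 in scrambled cells and -4.82 and -4.97 in sponge cells. This probe thus passed the filter only through the groups without IL-7, where scrambled arrays were higher than sponge arrays. Against the arrays' lowest detected signal, its level was at least 4.34-fold higher after withdrawal in scrambled cells and at least 1.3-fold higher in sponge cells. These bounds are a description, with no test, since the probe had to be high without IL-7 to be kept. Of the 30965 kept probes 46.2% and 19.8% were called in these comparisons. Without IL-7 it differed by -1.84 ± 0.18 between sponge and scrambled cells (adjusted p = 0.00181, 30% called). This SE and p in limma use a spread shared with the 4 arrays with IL-7, where the probe was not well above background. The sponge levels were also near the lowest detected signals of their arrays (-5.60 and -5.57). For the difference of the withdrawal effects, which rests on the arrays below background too, no value is given (4.12% of kept probes were called). With normexp background correction the differences were 0.62 on withdrawal in scrambled cells, 0.10 in sponge cells and -0.66 between constructs without IL-7.

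The Pirb probe of transcript ENSMUST00000078451 was by contrast bright and nearly flat, with log2 levels from 8.70 to 8.94 over the 8 arrays. Its differences were 0.01 ± 0.07 and -0.17 ± 0.07 on withdrawal in scrambled and sponge cells, and 0.08 and -0.10 between constructs with and without IL-7, and none was called, where 0.665% of the kept probes were called between constructs with IL-7. The third probe was not well above background on any array. Whether these probes also bind transcripts of the related Pira genes was not tested, so no single value is given for Pirb. The summed level of the myeloid markers, in units of the 75th percentile, was 162 to 199 in scrambled cells with IL-7, 181 to 211 in sponge cells with IL-7, 204 to 217 in scrambled cells without and 182 to 188 in sponge cells without. This sum is mostly the brightest marker, Csf3r, whose log2 levels were 7.19 to 7.59 over the 8 arrays. The next brightest, Itgam, had levels of 3.58 to 4.71. Of the 12 myeloid markers on the array, Csf3r, Itgam, Csf1r, Elane and Adgre1 were well above background on all 8 arrays and Fcgr1, Ly6g and S100a9 on 0. Of the 7 tested, Itgam was called higher on withdrawal in scrambled cells (0.61, adjusted p = 0.0423) and Lyz2, which no scrambled array showed well above background, was called lower, and the part of myeloid transcripts in the values of Pirb, Fcgr2b and Lair1 was not tested.

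**Figure D3:**
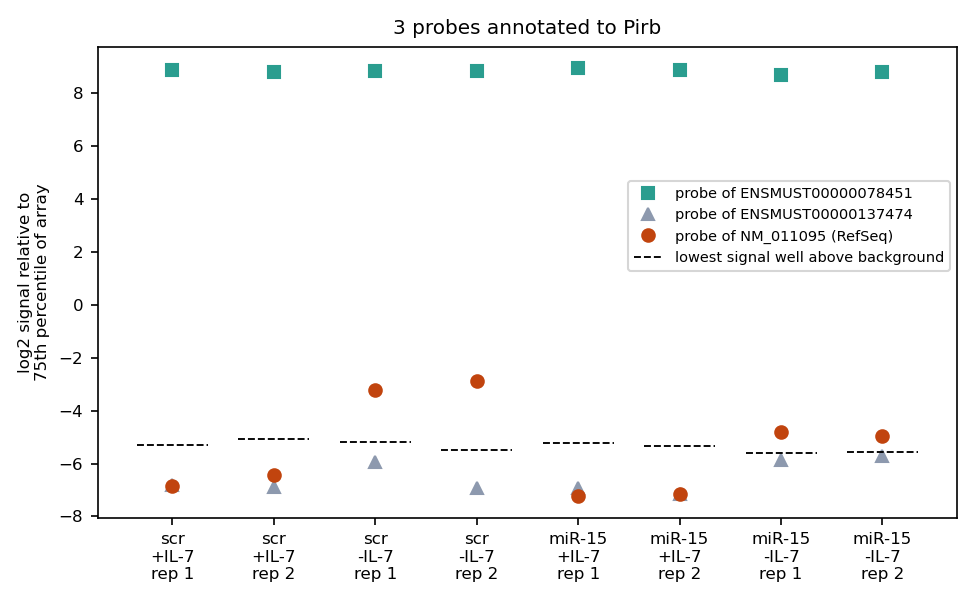
Level of the 3 probes annotated to Pirb on each array (vertical axis, log2 signal relative to the array's 75th percentile; horizontal axis, array). Dashes mark the lowest signal well above background on that array. The RefSeq probe crosses this line on the 4 arrays without IL-7, the bright probe stays between 8.70 and 8.94, and the third stays under the line.

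Promoter sequence is shown for 3 of the genes called in withdrawal of both cell types, 2 that rose and 1 that fell. Each run is the 250 bases before the RefSeq start (GRCm38.p6) on the gene's strand, and capitals mark the letters GGAAGT, a core of ETS factors such as PU.1, or TGGGAA, a core of Ikaros, on either strand.
Fcgr2b: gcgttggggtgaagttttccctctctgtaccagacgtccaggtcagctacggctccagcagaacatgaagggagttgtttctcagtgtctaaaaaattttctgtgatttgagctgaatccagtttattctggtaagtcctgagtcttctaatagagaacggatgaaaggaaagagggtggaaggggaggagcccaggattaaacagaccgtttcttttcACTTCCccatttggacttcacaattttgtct
Cd72: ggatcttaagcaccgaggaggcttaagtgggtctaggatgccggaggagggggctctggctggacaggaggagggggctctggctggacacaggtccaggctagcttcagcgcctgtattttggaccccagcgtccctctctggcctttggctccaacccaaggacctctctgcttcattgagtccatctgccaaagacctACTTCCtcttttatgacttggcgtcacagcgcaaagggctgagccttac
Ptpn6: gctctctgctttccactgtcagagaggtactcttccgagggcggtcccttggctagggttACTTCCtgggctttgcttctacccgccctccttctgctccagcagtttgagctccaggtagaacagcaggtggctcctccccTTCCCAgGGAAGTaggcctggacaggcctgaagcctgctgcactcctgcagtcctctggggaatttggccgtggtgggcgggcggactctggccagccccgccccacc
The ETS letters begin 31 bases before the start in Fcgr2b (chr1:170976072-170976321, minus strand) and 49 bases before it in Cd72 (chr4:43454627-43454876, minus strand). In Ptpn6 (chr6:124738710-124738959, minus strand) they begin at 190 and 101 bases, and the Ikaros letters at 108. So the ETS letters occurred before genes that rose and a gene that fell, while the 2 windows of Siglecg, which also rose in both cell types, held none of the letters searched. Over the 10 genes, 8 of 13 promoter windows held the ETS letters, against 19.7% of 32851 mouse windows, and 6 of 13 held the Ikaros letters, against 21.6%. The windows of 1 gene can overlap, and a match is only a description of the sequence. The STAT letters TTCNNNGAA were found in 1 window, of Ptpn22, where they overlap an Ikaros match (7.02% of all windows), and the FOXO letters GTAAACA (3.17%) and the MYC letters CACGTG (6.02%) were in 0 of these windows.

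The genes that the receptors act through were read from further lists. Of 15 tested inhibitory effectors, 4 rose and 1 fell on withdrawal in scrambled cells, with a median of 0.12, so that 33.3% were called, against 48.1% of all genes (20.7% higher, 27.4% lower). The adaptors Sla (0.79 ± 0.07, adjusted p = 0.000557) and Dok3 (0.75 ± 0.09, adjusted p = 0.00117) and the ubiquitin ligase Cblb (0.72 ± 0.09, adjusted p = 0.00159) rose, and Ptpn11, which encodes SHP-2, fell by 0.32 ± 0.08 (adjusted p = 0.0217). Inpp5d, the SHIP that FcγRIIB recruits, differed by 0.06 (adjusted p = 0.457) on withdrawal in scrambled cells, and by -0.10 (adjusted p = 0.299) between sponge and scrambled cells without IL-7. Without IL-7, 5 of the 15 effectors were lower in sponge cells, among them Sla (-0.54) and Dok3 (-0.51), and 2 were higher, Inppl1 (0.44) and Ptpn11 (0.32), where 15.3% of all genes were lower and 16.7% higher.

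A list of other protein tyrosine phosphatases had 14 tested genes, among them Ptprcap, which encodes a CD45-associated protein and not a phosphatase. Of the 14, 3 rose and 3 fell on withdrawal in scrambled cells (median -0.14), 42.9% against the 48.1% of all genes called. Ptpn7, a phosphatase of MAP kinases, fell by 1.29 ± 0.09 (adjusted p = 0.00034), and Ptprj, which encodes CD148, rose by 0.60 ± 0.08 (adjusted p = 0.00233). Ptpre, among the 3 that rose, was not well above background with IL-7 and passed the filter only through the groups without it. Its call is therefore not a test. In scrambled cells it was at least 3.59-fold higher without IL-7, which is a description only. Ptpn7 was 0.97 ± 0.09 higher in sponge cells than in scrambled cells without IL-7 (adjusted p = 0.00142). Its difference of the withdrawal effects was called (0.92 ± 0.13, adjusted p = 0.0307), but not with the replicate block (adjusted p = 0.0508).

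A further list of 20 genes held inhibitory receptors and related proteins, not all of them inhibitory receptors, and 9 were tested. On withdrawal in scrambled cells 3 rose while limma called 0 lower (0 also at an unadjusted p under 0.05). This was 33.3% called, against 48.1% of all genes (20.7% higher, 27.4% lower). Fcrla, an intracellular Fc receptor-like protein of B cells, rose by 2.16 ± 0.13 (adjusted p = 0.000272), the adhesion receptor Pecam1 by 0.48 ± 0.08 (adjusted p = 0.00445) and Cd300lf by 1.16 ± 0.30 (adjusted p = 0.0226). Without IL-7, Fcrla differed by -1.26 ± 0.13 between sponge and scrambled cells (adjusted p = 0.00169). Of 10 ligand and partner genes 3 rose and 3 fell on withdrawal in scrambled cells (60% called, against 48.1% of all genes). Those that rose were Cd40 (4.31 ± 0.22), Cmah (1.60 ± 0.31) and Neu1, a sialidase (1.42 ± 0.13). Those that fell were Lgals9 (-1.01 ± 0.08), Lgals1 (-0.92 ± 0.09) and St6gal1, which makes the sialic acid linkage that CD22 binds (-0.30 ± 0.08, adjusted p = 0.0239). Neu1 differed by -1.47 ± 0.13 between sponge and scrambled cells without IL-7 (adjusted p = 0.00133) and by -1.15 ± 0.13 with IL-7 (adjusted p = 0.0253). Of 19 tested genes of the B cell receptor pathway itself, 6 rose and 2 fell on withdrawal in scrambled cells (42.1% called, against 48.1% of all genes). Lyn was at 0.98 ± 0.12 (adjusted p = 0.00168) and Cd81 at -0.62 ± 0.09 (adjusted p = 0.00257). Without IL-7 1 was higher and 7 were lower in sponge cells (42.1% called, against 32.1% of all genes). Both comparisons count Blnk (0.73 and -0.55), the gene of SLP-65, whose probe was not placed relative to the disrupted sequence.

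**Figure D4:**
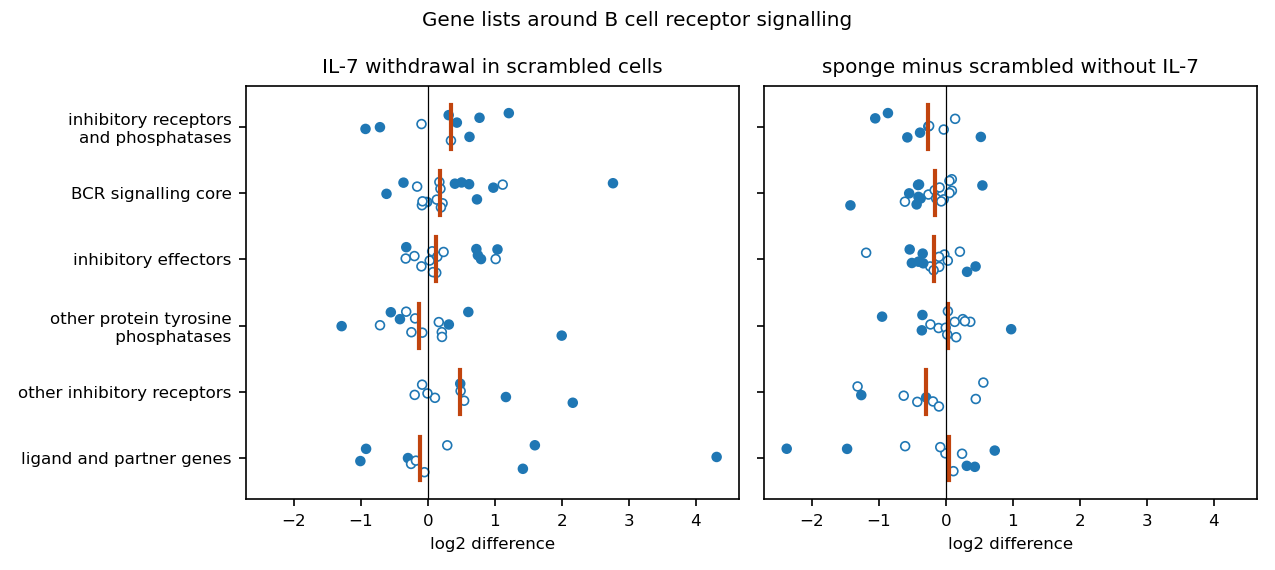
Log2 difference (horizontal axis) of each tested gene of 6 lists (rows) on IL-7 withdrawal in scrambled cells (left) and between sponge and scrambled cells without IL-7 (right). Filled points were called, red bars are list medians, and vertical jitter has no meaning. The inhibitory receptors and phosphatases had medians of 0.34 and -0.26, against -0.02 and -0.05 over all genes.

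For the 7 genes called on withdrawal in scrambled cells, the genes of most similar profile over the 8 arrays were sought by the root mean square difference of profiles centred on their own mean. Fcgr2b was closest to Rab3a (0.04 log2 units) and Smtnl2 (0.05). Siglecg was closest to Kdm4b (0.03) and Rnf123, Cd72 to Gm6598 (0.05) and Desi1, and Cd22 to Trrap (0.05) and Cyrib. Ptpn6 was closest to Pold4 (0.04) and Gng7, Ptprc to Snrk (0.03) and Zfp251, and Cd5 to Apex1 (0.11) and Lss. The likeness rests on 8 arrays in 4 groups, and no member was among another's closest pair.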

How the data were processed

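RNA of 8 cultures was hybridised to 1-colour Agilent arrays. The deposited scanner tables give a linear intensity, the processed signal, background-subtracted and detrended within the array per the file headers, from Agilent Feature Extraction (10.7.1.1 per the submitters' processing notes, 10.7.3.1 per the file headers). The authors' deposited value table also holds intensity, with the same distribution on every array, and served as an alternative. Control and flagged spots (128 to 277 per array) were left out, each array was scaled to its 75th percentile on the log2 scale, and spots of a probe were averaged, except that a probe whose spots were all flagged on an array kept its flagged value. A probe was kept if any group had both its arrays flagged well above background (30965 of 55681), and the brightest represented its gene. Names came from RefSeq by accession (27235 probes), symbol (3581) or synonym (565). Probe positions are mm9 as deposited, and no exon or UTR was assigned.

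The 4 group means were fitted with limma 3.58.1 in R 4.3.3 (4 residual degrees of freedom), two-sided, with Benjamini-Hochberg adjustment over all genes of each of 5 contrasts, and tested on simulated data. The number of arrays limits precision. Replicate numbers were taken as pairs from the series description, which speaks of separate experiments. The correlations of their deviations between groups were 0.0174 to 0.131. The fit has no block, and the blocked fit is an alternative. Where a group was not well above background, its arrays' lowest detected signal gave the bound.

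The genes, lists and rule for named genes were chosen with earlier results of these data known. The rule takes every member, the called list genes of smallest adjusted p and the 2 closest profiles per called member. Not all genes it takes are reported here.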

Additional observations from a re-analysis of the deposited data

How the results depend on the processing

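With 2 arrays per group, precision was limited by the number of arrays, and the RefSeq probe of Pirb had only a bound in the groups with IL-7. Over 18 alternatives, of which the fit with 1 value per probe was added after seeing the data, 324 values of called results for the 9 genes were recomputed, and 0 changed direction, 269 kept the call and 55 lost it. Many of these values could not change direction. The replicate block, the variance trend and the fit with 1 value per probe return the main difference. So does leaving out an array outside the comparison. The deposited table also gave nearly the values of quantile normalization. The causes of the lost calls were not tested. On withdrawal in scrambled cells 3 genes were called higher without a filter on dim probes, 6 with the filter on all 8 arrays, which added Lair1, and 3 to 5 with 1 array left out. On withdrawal in sponge cells 1 was called lower after quantile normalization, in the authors' deposited table and with no filter, and leaving out 1 array gave 1 to 3 higher and 0 to 2 lower. Between constructs with IL-7 1 was called lower with normexp, with quantile normalization, in the deposited table, with the filter on all 8 arrays and with the mean of probes, 2 with a variance trend, and 0 to 1 with 1 array left out. Without IL-7 0 were called higher with normexp or no filter, 3 were called lower with no filter, and leaving out 1 array gave 0 to 1 higher and 1 to 5 lower. For the difference of the withdrawal effects 1 was called lower after quantile normalization and in the deposited table, and 2 with a variance trend.

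Sign changes were found only among differences that were not called. On withdrawal in scrambled cells Ptpn22 ranged from -0.31 to 0.11 with 1 array left out. In sponge cells Lair1 was -0.0748 with normexp and -0.0544 to 0.164 with 1 array left out, and Cd22 was -0.0199 after quantile normalization, -0.0182 in the deposited table and -0.12 to 0.16 with 1 array left out. Between constructs without IL-7 Ptpn6 was -0.0028 and -0.0024 and Lair1 0.0785 and 0.0791 after quantile normalization and in the deposited table, and Lair1 was -0.10 to 0.038 with 1 array left out. For the difference of the withdrawal effects Siglecg was 0.0522 and Cd5 -0.0154 with normexp, and with 1 array left out Siglecg ranged from -0.17 to 0.009, Cd5 from -0.0815 to 0.29, Ptprc from -0.13 to 0.0311 and Ptpn22 from -0.35 to 0.0675. The bright Pirb probe was -0.12 with normexp and -0.0179 to 0.043 with 1 array left out on withdrawal in scrambled cells, 0.18 and 0.18 on withdrawal in sponge cells after quantile normalization and in the deposited table, 0.0451 and 0.0449 between constructs without IL-7 under the same 2 settings, and with normexp -0.0861 between constructs with IL-7 and 0.0291 for the difference. The RefSeq probe of Pirb gave no value with the filter on all 8 arrays or with the mean of probes.

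With the replicate block, whose numbers come from the series description, the called members were the same except that Ptprc was added between constructs without IL-7 (-0.25, adjusted p = 0.0494). Over all genes, withdrawal in scrambled cells called 4412 higher and 5836 lower, against 5255 and 4958 after quantile normalization, and 6769 to 10355 in all with 1 array left out. In sponge cells 1688 were higher and 3251 lower, against 2086 and 1961 after quantile normalization, 2642 called with no filter and 1738 to 5133 with 1 array left out. Between constructs 241 were called with IL-7, against 390 with normexp, 82 with no filter, 425 with the filter on all 8 arrays, 151 with the block, 1026 with a variance trend and 38 to 1360 with 1 array left out, and they split into 67 higher and 174 lower, against 157 and 233 with normexp. Without IL-7 the 6842 calls became 3416 to 7445 with 1 array left out. The 1124 calls for the difference became 0 with the block or no filter, 1715 with the filter on all 8 arrays, 2364 with a variance trend and 0 to 1615 with 1 array left out. A slide block was not run, since all arrays shared 1 slide and scan.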
